A study of Mus musculus with 6 samples.

Results

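The Cyp2a genes of mouse liver encode cytochrome P450 enzymes that hydroxylate coumarin and steroids. They were measured as the 5 probes whose gene name began with Cyp2a, among the 41174 probes of an Agilent whole-genome oligonucleotide array. The probes were 2 for Cyp2a4 (A_51_P377154 as probe 1 and A_52_P9703 as probe 2), 2 for Cyp2a5 (A_52_P246255 as probe 1 and A_52_P246252 as probe 2) and 1 for Cyp2a12 (A_51_P206736), and every probe was kept apart. They stand for 3 of the 27962 gene names on the array. A further probe, A_52_P95517, carried the name LOC233005. That number is the gene identifier of Cyp2a22 in RefSeq, so the probe lay outside the name rule and its values are given beside the others.

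Male 129/Sv mice, 6 to 8 weeks old at the start, all took the control liquid diet for an initial week. The alcohol arm then received the Lieber-DeCarli liquid diet with 4% ethanol, and the control arm an isocaloric diet with maltose dextran in place of ethanol. Livers were taken after 1, 2 or 4 months, and RNA of 6 mice of an arm was combined, which gave 6 pools. At each month the alcohol and the control pool were hybridized together on 2 arrays, with alcohol in Cy5 on one array and in Cy3 on the other. A month therefore held 1 alcohol and 1 control pool, and the spread between its 2 arrays was technical. Variation between mice cannot be seen in pooled RNA, and fewer hepatocytes cannot be told apart from less RNA per hepatocyte.

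CYP2A5 is the main coumarin hydroxylase of mouse liver and also metabolizes nicotine and oxidizes bilirubin. CYP2A4, its close relative, hydroxylates testosterone and is more abundant in female than in male liver, while CYP2A12 hydroxylates steroids and bile acids. All of these enzymes carry heme and take electrons from the reductase encoded by Por. Known inputs to Cyp2a5 include the nuclear receptors CAR and HNF4A, the stress factor NRF2, the coactivator PGC-1alpha, the RNA-binding protein HNRNPA1 and the clock-driven PAR bZIP factors DBP, TEF and HLF.

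The genes lie in one Cyp2 cluster of chromosome 7. In RefSeq (assembly GRCm38.p6) Cyp2a4 occupies chr7:26307192-26315088 and Cyp2a5 chr7:26835339-26843264, with 520.3 kb between them. Cyp2a22 follows at chr7:26931631-26939413 and Cyp2a12 at chr7:27029090-27036818, 88.4 kb and 89.7 kb further on. The 150 bases before each start in the RefSeq promoter table are shown because they show how close the relatives are to each other. They run 5′ to 3′ in the direction of transcription, and capitals mark the 4 letter strings searched on both strands. For Cyp2a22 that start differs from the end of the gene given above, and 27 bases of its window lie inside the gene.
Cyp2a4 (chr7:26307042-26307191, plus strand): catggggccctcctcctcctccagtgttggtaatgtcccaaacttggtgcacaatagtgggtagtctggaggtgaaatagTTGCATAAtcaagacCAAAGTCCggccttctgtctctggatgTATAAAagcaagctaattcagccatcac
Cyp2a5 (chr7:26835189-26835338, plus strand): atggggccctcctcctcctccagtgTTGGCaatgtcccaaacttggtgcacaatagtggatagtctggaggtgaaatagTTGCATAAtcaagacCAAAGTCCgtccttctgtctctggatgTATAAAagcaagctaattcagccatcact
Cyp2a22 (chr7:26939387-26939536, minus strand): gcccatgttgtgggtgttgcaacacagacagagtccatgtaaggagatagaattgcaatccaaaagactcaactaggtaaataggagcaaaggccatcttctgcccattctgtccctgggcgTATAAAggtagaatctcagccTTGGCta
Cyp2a12 (chr7:27028940-27029089, plus strand): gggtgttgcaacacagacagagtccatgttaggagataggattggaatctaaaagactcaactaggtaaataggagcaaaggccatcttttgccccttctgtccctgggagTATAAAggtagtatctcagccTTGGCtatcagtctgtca

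The Cyp2a4 and Cyp2a5 windows matched at 146 of 149 aligned bases, an identity of 98.0%. The Cyp2a22 and Cyp2a12 windows matched at 131 of 139 aligned bases (94.2%), whereas Cyp2a5 and Cyp2a12 matched at 84 of 126 (66.7%). TATAAA, the core of a TATA box, stood in all 4 windows and in 7.57% of the 32851 promoter windows of the same length in RefSeq. CAAAGTCC, letters of the kind HNF4A binds, and TTGCATAA, letters of the kind C/EBP and PAR bZIP factors bind, stood in the Cyp2a4 and Cyp2a5 windows, against 0.737% and 0.444% of all windows. TTGGC, one arm of a nuclear factor I site, stood in the windows of Cyp2a5, Cyp2a22 and Cyp2a12 and in 29.0% of all windows. None of the marked strings overlapped another. The strings were chosen after these sequences were read, and a match describes letters and not binding. The windows lie before the genes, apart from part of that of Cyp2a22, so they do not show how alike the transcripts are. A probe of one gene may also capture RNA of a relative, and the probe sequences were not used here.

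All 5 probes were well above background in each of their 12 readings, and 0 of these 60 readings were saturated. The labelled tissue was checked with hepatocyte markers, of which 8 of the 10 listed had a probe and all 8 were well above background in every reading. Between 73.1% and 90.3% of all probes reached that level in a channel. The disagreement between the dyes grew after 1 month. The dye part of a ratio is the distance of either array from the mean of its pair. Its SD over all 37940 probes tested came to 0.169, 0.308 and 0.345 on the log2 scale after 1, 2 and 4 months. The 1-month arrays shared one slide and scan and the 2- and 4-month arrays another, so slide and scan cannot be told apart from 1 month against the later months.

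The Cyp2a4 and Cyp2a5 probes were higher in the alcohol pool than in the control pool on all 6 arrays, and Cyp2a12 was higher on 5 of 6. The 4 probes of Cyp2a4 and Cyp2a5 thus stood above 0 throughout, as did 1.49% of all probes tested. At 4 months all 4 were raised at least 2-fold, with both arrays in the same direction, a call made for 0.432% of probes. At 1 month 0 of the 5 probes reached 2-fold (0.142% of all probes did) and at 2 months 1 did (0.237%). At 1.5-fold, 4 probes were called at 1 month, 4 at 2 months and 5 at 4 months, against 0.561%, 1.17% and 2.03% of all probes. No Cyp2a probe was lowered at 2-fold in any month, where 0.0949%, 0.179% and 0.324% of all probes were.

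**Figure D1:**
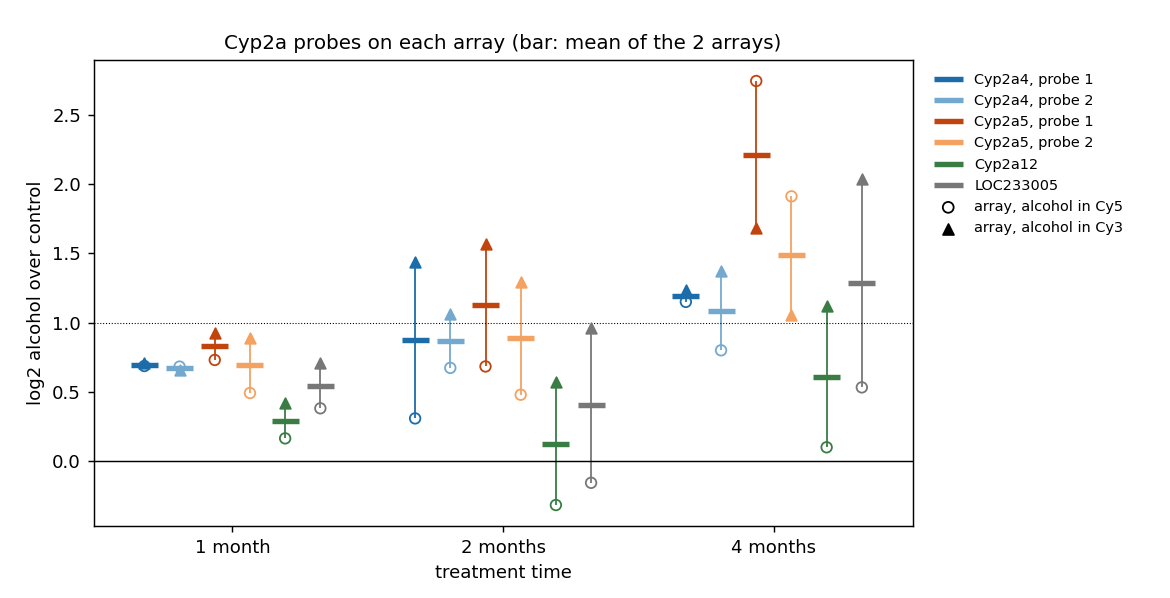
Log2 ratio of alcohol over control (vertical axis) at 1, 2 and 4 months for the 5 Cyp2a probes and LOC233005. Open circles are the array with alcohol in Cy5, triangles the array with alcohol in Cy3, and bars the mean of both; the dotted line marks 2-fold, which all 4 Cyp2a4 and Cyp2a5 bars pass at 4 months.

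By its probe 1, Cyp2a5 had the highest mean ratio of the 3 genes in every month. After 1 month the log2 ratio of this probe was 0.73 with alcohol in Cy5 and 0.93 with alcohol in Cy3. After 2 months the same arrays gave 0.68 and 1.57, and after 4 months 2.75 and 1.68. The mean ratios corresponded to 1.78-fold, 2.18-fold and 4.65-fold. The 2 arrays lay 0.14, 0.63 and 0.75 apart as an SD, so the step from 1 to 2 months was within the spread of the arrays, while both 4-month arrays lay above both 2-month arrays. By ratio the probe ranked 99th, 56th and 17th of the 37940 probes tested.

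Probe 2 of Cyp2a5 gave lower values in the same order. In the same order of dyes, its log2 ratios were 0.49 and 0.89 after 1 month, then 0.48 and 1.30, and then 1.91 and 1.06 after 4 months. These were means of 1.61-fold, 1.85-fold and 2.80-fold. Here the 2- and 4-month readings overlapped, since the lower 4-month array (1.06) lay under the higher 2-month array (1.30).

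The probes of Cyp2a4, the steroid hydroxylase, were close to each other in the mean ratio of each month, but less so on single arrays at 2 and 4 months. Probe 1 gave log2 ratios of 0.69 and 0.71, then 0.31 and 1.44, then 1.15 and 1.24 over the 3 months. Probe 2 gave 0.68 and 0.66, then 0.67 and 1.06, then 0.80 and 1.37. At 1 month the arrays differed by an SD of only 0.015 and 0.017, and the wide 2-month pair of probe 1 (SD 0.80) spanned its values at the other months. For probe 1 both 4-month arrays lay above both 1-month arrays, and the same held for probe 2.

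Cyp2a12 had the lowest mean ratio of the 3 genes in every month. Its log2 ratios were 0.16 and 0.42 after 1 month, then -0.32 and 0.57, and then 0.10 and 1.12, with means of 0.29, 0.12 and 0.61. The array with alcohol in Cy3 was the higher one in each month, and the arrays with alcohol in Cy5 alone averaged -0.02. LOC233005 had the same form, with 0.38 and 0.71, then -0.16 and 0.96, then 0.53 and 2.04, and it was raised 2.44-fold at 4 months.

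The plot of one array against the other shows this dye pattern for each month. At 2 months the 5 Cyp2a probes and LOC233005 all lay above the diagonal, that is, higher with alcohol in Cy3. At 4 months the Cyp2a5 probes alone lay below it.

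**Figure D2:**
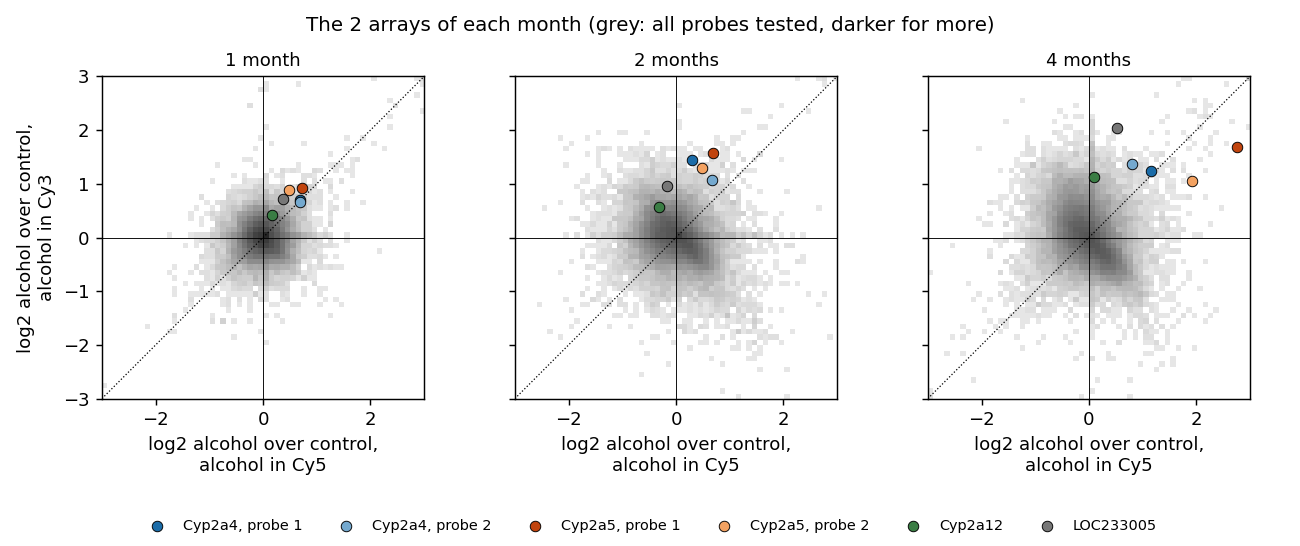
Log2 alcohol over control on the array with alcohol in Cy5 (horizontal) against the array with alcohol in Cy3 (vertical) for each month. Grey squares count the 37940 probes tested, with values beyond 3 in size placed at the edge, and coloured points are the Cyp2a probes and LOC233005; the points on the dotted line have equal ratios on both arrays, as both Cyp2a4 probes nearly do at 1 month.

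Reading both pools in the same dye, on the 2 arrays of a month, removes a preference of a probe for one dye but adds differences between arrays. By this reading all 5 probes were higher in the alcohol pool in each month and in each dye, as were 0.841% of all probes tested. For Cyp2a12 the dyes then came close, with log2 differences of 0.63 in Cy5 and 0.58 in Cy3 at 4 months, after 0.20 and 0.03 at 2 months and 0.21 and 0.36 before that. LOC233005 likewise gave 1.25 and 1.32 at 4 months. For Cyp2a5 the dyes moved apart, to 0.84 and 3.59 for probe 1 and 0.59 and 2.37 for probe 2 at 4 months. Cyp2a4 gave 0.63 and 1.76 by probe 1 and 1.27 and 0.90 by probe 2, so each of its probes stayed under 2-fold in one dye. Of the 5 probes, 1 reached 2-fold at 4 months within Cy5, where 1.35% of all probes did, and 3 within Cy3, where 14.4% did. This comparison was added after the ratios were seen.

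Over the 3 months as replicates, limma gave a mean log2 effect of 1.39 for probe 1 of Cyp2a5 (SE 0.278, adjusted p = 0.621) and 1.02 for probe 2 (SE 0.165, adjusted p = 0.601). The Cyp2a4 probes had effects of 0.92 (SE 0.110, adjusted p = 0.601) and 0.87 (SE 0.0965, adjusted p = 0.509), and Cyp2a12 an effect of 0.34 (SE 0.108, adjusted p = 0.621). The effects of the Cyp2a5 and Cyp2a4 probes thus stood at 2.62-, 2.03-, 1.89- and 1.83-fold, but none passed after Benjamini-Hochberg adjustment in limma over all 37940 probes. No probe of the array passed either (0 probes, 0%), while 3028 had an unadjusted limma p under 0.05. Without adjustment, limma placed all 5 Cyp2a probes under 0.05 with a raised effect, which 3.54% of all probes met. The unadjusted limma p-values were 0.000336 and 0.000484 for Cyp2a4, 0.00184 and 0.00457 for Cyp2a5 and 0.0269 for Cyp2a12.

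The question of a growing response was addressed with the slope of the monthly ratio on the log2 of the month. The mean ratio was higher at 2 than at 1 month and higher again at 4 months in 4 of the 5 probes, the exception being Cyp2a12, and in 17.3% of all probes. This order rests on the mean of both arrays: with alcohol in Cy5 it held for 0 of the 5 probes, since no probe was higher at 2 than at 1 month there, and with alcohol in Cy3 for 3. With both pools read in one dye it held for 1 probe in Cy5, probe 1 of Cyp2a5, and for 3 in Cy3. Per doubling of treatment time the slope was 0.69 (SE 0.137) and 0.40 (SE 0.0974) for Cyp2a5, 0.25 and 0.21 for Cyp2a4 and 0.16 for Cyp2a12. None of these slopes passed in limma (adjusted p from 0.627 to 0.877), and neither did any other probe. Unadjusted, limma placed 2813 slopes of either sign under 0.05, among them 3 of the 5, against 4.28% of all probes with a rising slope. As the 1-month arrays had their own slide, a slope cannot be told apart from the change of slide, but the step from 2 to 4 months lay within one slide.

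Cyp2a4 and Cyp2a5 were set against Cyp2a12 to see whether the family moved as one. The mean log2 ratio of the 4 probes exceeded that of Cyp2a12 by 0.43, 0.82 and 0.89 at the successive months, a mean of 0.71 ± 0.25 (SD, n = 3). The sign was the same in 3 of 3 months. The exact two-sided sign-flip permutation test gave p = 0.25 (n = 3), the smallest value that 3 months allow. With both pools read in Cy5 the mean excess was 0.36, and with both read in Cy3 it was 1.06.

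Levels in the single pools give each side of these ratios. They are given as log2 signal over the 75th percentile of the channel, and a level of one probe is not comparable with that of another. For Cyp2a5, every reading of an alcohol pool lay above every reading of a control pool, by both probes. This held for 2 of the 5 Cyp2a probes and for 26 (0.0685%) of all probes tested. Probe 1 read between 4.62 and 5.88 in the alcohol pools and between 2.16 and 4.37 in the control pools, and probe 2 between 4.14 and 5.08 against 2.70 and 4.02. For Cyp2a4, Cyp2a12 and LOC233005 the readings of both arms overlapped across months.

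The Cyp2a5 order from the highest pool was alcohol at 2, 4 and 1 months for probe 1 and alcohol at 4, 2 and 1 months for probe 2, followed in both by control at 2, 1 and 4 months as means. For probe 2 the place of the 4-month control rests on its Cy3 reading, since in Cy5 it was the highest control pool (4.02, against 3.69 and 3.45 at 2 and 1 months), and with loess and Aquantile scaling its mean lay 0.22 above that at 2 months. Neighbouring alcohol pools overlapped in their readings, as did control at 1 and 4 months. The alcohol pool of probe 1 stayed at 5.46 at 2 months and 5.33 at 4 months, while the control pool went from 4.34 to 3.12. That low control mean came from 1 of its 2 readings. The 4-month control pool read 4.07 in Cy5 but 2.16 in Cy3 for probe 1, and 4.02 but 2.70 for probe 2. In the same order of dyes the 4-month control pool read 3.62 and 3.09 for Cyp2a4 probe 1, 2.52 and 2.99 for its probe 2, and 2.91 and 3.45 for Cyp2a12, so a Cy3 reading this far below Cy5 was seen for Cyp2a5 and for no other Cyp2a gene. On the array without that reading, the 4-month ratio of Cyp2a5 was 3.21-fold by probe 1 and 2.08-fold by probe 2.

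**Figure D3:**
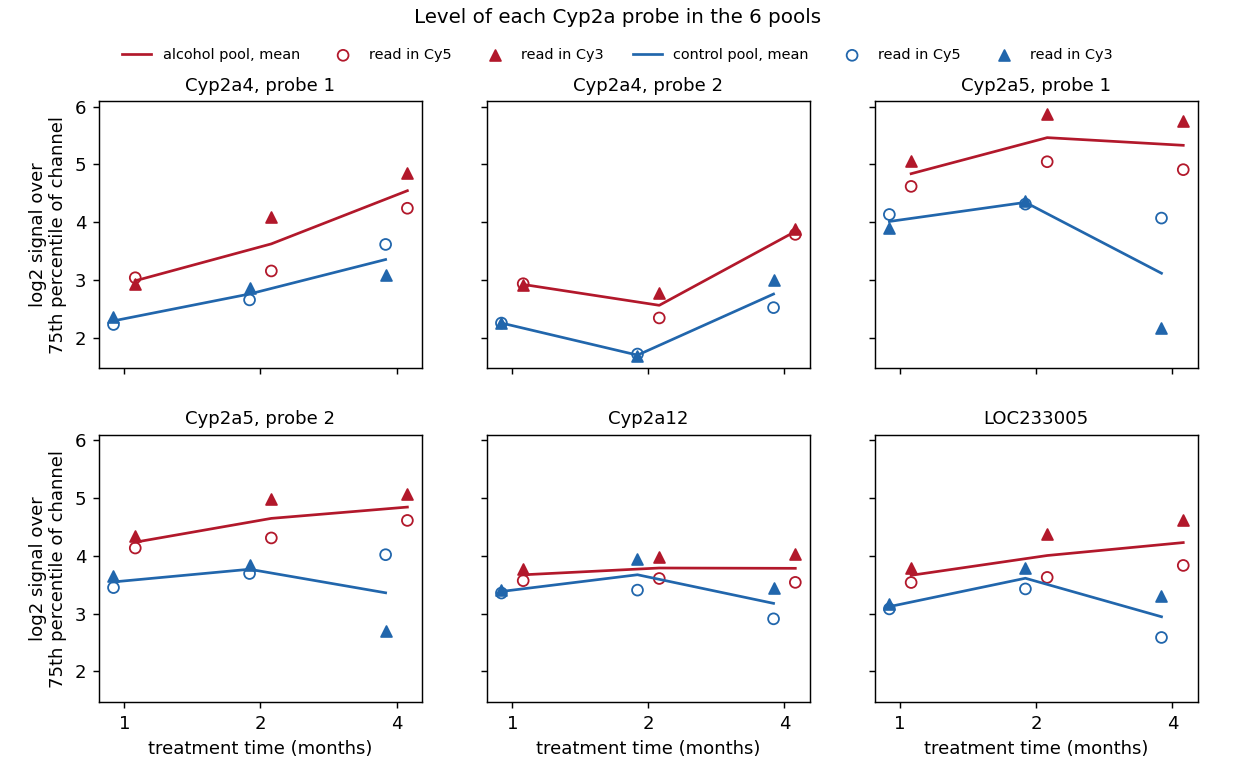
Level of each probe (log2 signal over the 75th percentile of its channel, vertical axis) against treatment time in months. Red marks the alcohol and blue the control pools, circles are readings in Cy5, triangles readings in Cy3 and lines join the means of both; for Cyp2a5 the 4-month control readings lie far apart, and for Cyp2a4 the months have the same order in both arms.

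The control pools of Cyp2a4 were highest at 4 months. Probe 1 of Cyp2a4 read a mean of 2.29, 2.76 and 3.35 in the control pools at 1, 2 and 4 months and 2.99, 3.63 and 4.55 in the alcohol pools. Probe 2 read 2.26, 1.70 and 2.76 in the control pools and 2.92, 2.56 and 3.84 in the alcohol pools. The order of the months was the same in both arms by either probe, and the 4-month alcohol pool was the highest of the 6 pools, without overlap with the next one. The mean control level was 1.51-fold higher at 4 than at 2 months by probe 1 and 2.08-fold by probe 2. The log2 change was 0.96 in Cy5 but 0.23 in Cy3 for probe 1, so 1.5-fold was reached in Cy5 alone, and 0.80 and 1.31 for probe 2. A mean change of at least 1.5-fold with a rise in both dyes was met by 2 of the 5 Cyp2a probes and by 8.43% of all probes. The probes of Cyp2a4 disagreed on the step from 1 to 2 months, where the control level changed by 0.47 for probe 1 and by -0.56 for probe 2, each with the same sign in both dyes.

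Cyp2a12 held a narrow range. Its alcohol pools averaged 3.67, 3.79 and 3.78 at 1, 2 and 4 months, and its control pools 3.38, 3.67 and 3.18. The 4 highest pools overlapped in their readings, each with its neighbour. Between 2 and 4 months its control level changed by -0.50 in Cy5 and -0.49 in Cy3, while its alcohol level changed by -0.07 and 0.06.

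Over the 6 pool levels and within the family, Cyp2a5 probe 1 had a Pearson r of 0.95 with Cyp2a5 probe 2, 0.96 with Cyp2a12, 0.95 with LOC233005, and 0.51 and 0.37 with the Cyp2a4 probes. Probe 2 of Cyp2a5 had 0.74 with Cyp2a4 probe 1. These correlations describe 6 pools that share arrays in pairs. Genes outside the family with a symbol in RefSeq were ranked among 17712 probes well above background throughout and with an SD of at least 0.3 over the pools. The 5 most like Cyp2a5 probe 1 were Mt1 (0.98), Cyp2c39 (0.96), Ccl6 (0.95), Cyp2c29 (0.94) and Gstm1 (0.90). For Cyp2a12 they were Mt1 (0.97), Cyp2c29 (0.92), Fmo2 (0.89), Gstm1 (0.89) and Cyp2c39 (0.88). For Cyp2a4 probe 1, added after the pool levels were seen, they were Fmo5 (0.98), Abcb1b (0.98), Cyp2c38 (0.96), Slco1a4 (0.96) and Cldn19 (0.95). As the highest r of many probes over only 6 pools, these values are high in part by selection. Cyp2c29, Cyp2c38 and Cyp2c39 are P450 genes of another subfamily, Mt1 encodes a metallothionein and Gstm1 a glutathione transferase.

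Neighbours of the Cyp2a genes in the Cyp2 cluster ranged from strongly raised to nearly level. At 1 month the 3 Cyp2b genes on the Cyp2s1 side of Cyp2a4 had the highest ratios of the cluster. At 2 and 4 months the mean of Cyp2b9 lay below that of probe 1 of Cyp2a5, but not on every array. With alcohol in Cy5 at 2 months Cyp2b9 had 0.86 against 0.68, and with alcohol in Cy3 at 4 months 1.95 against 1.68. Cyp2b10, the standard CAR target, had mean log2 ratios of 3.27, 2.77 and 4.03 at 1, 2 and 4 months, Cyp2b13 3.40, 2.88 and 2.36, and Cyp2b9 2.73, 1.11 and 1.87. Cyp2b19, which lies between Cyp2a4 and Cyp2a5, stayed between 0.05 and 0.11, and Cyp2f2 beyond Cyp2a12 had -0.04, -0.34 and -0.11. Of the 9 other cluster genes listed, 7 had a probe, and the same count of 3 was raised at least 2-fold in each month, where 0.142%, 0.237% and 0.432% of all probes were at 1, 2 and 4 months.

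**Figure D4:**
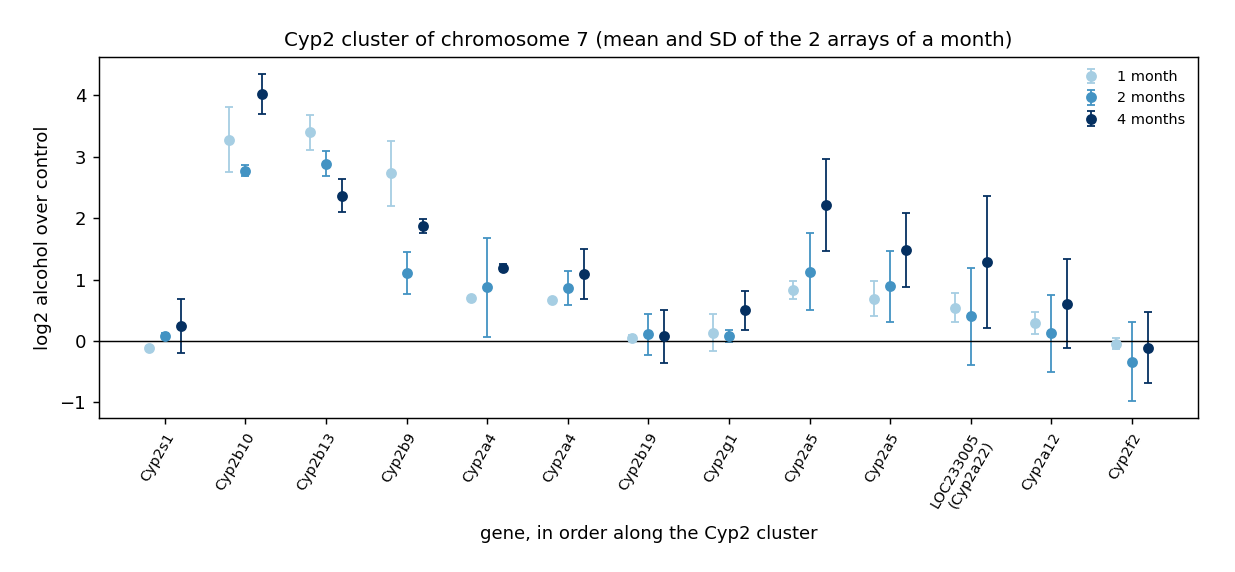
Mean log2 alcohol over control at 1, 2 and 4 months (vertical axis, bars are the SD of the 2 arrays) for the genes of the Cyp2 cluster in their order along chromosome 7. Cyp2b10, Cyp2b13 and Cyp2b9 lie above the Cyp2a genes at 1 month, and Cyp2b19 and Cyp2g1, between Cyp2a4 and Cyp2a5, lie near 0 at 1 and 2 months.

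Gene groups tied to the Cyp2a enzymes are described next. For each list the median log2 ratio is given beside that of all probes tested, which was 0, 0.0091 and -0.0086 at 1, 2 and 4 months, and no gene of any list passed the adjusted limma test. The CAR and PXR targets had medians of 0.44, 0.40 and 0.65, and 13 of their 17 genes had a raised effect with an unadjusted limma p under 0.05, against 3.54% of all probes. Of these genes, 2, 3 and 6 were raised at least 2-fold at 1, 2 and 4 months, against 0.142%, 0.237% and 0.432% of all probes, among them Cyp3a11 at 1.29 and 2.40 at 2 and 4 months and Cyp2c29 at 2.49 at 4 months. The NRF2 targets had medians of 0.09, 0.15 and 0.13, and 5 of 16 had a raised and 0 a lowered effect with an unadjusted limma p under 0.05, where 3.54% and 4.44% of all probes did. Of these targets 1, Gsta2, was raised 2-fold at 1 month (1.56, 0.142% of all probes). The lists share members, among them Gstm1 in the CAR and PXR and the NRF2 lists, and Cyp2b10 in the CAR and PXR and the cluster lists. Hmox1, the heme oxygenase of both the NRF2 and the heme lists, had 0.03, 0.08 and 0.63.

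The regulators of Cyp2a genes, a list of 27, had medians of 0.01, 0.00049 and -0.01. Of them 3 had a lowered and 0 a raised effect with an unadjusted limma p under 0.05, against 4.44% and 3.54% of all probes. Nr1i3, which encodes CAR, had 0.16, 0.10 and 0.01, Hnf4a 0.18, 0.12 and 0.11, Ppargc1a 0.16, -0.11 and 0.11, and Hnrnpa1 -0.02, 0.15 and 0.05. Nfe2l2, which encodes NRF2, had -0.05, -0.39 and -0.62. The 2 list members called at 2-fold were both lowered, Bcl6 at 1 month (-1.21) and Foxa2 at 4 months (-1.01), where 0.0949% and 0.324% of all probes were. Stat5b and Ghr, of the growth hormone pathway, had 0.16, -0.0030 and 0.04 and 0.05, -0.41 and -0.63.

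Among the PAR bZIP and clock genes, Dbp was lowered at 2-fold at 2 months (arrays of -1.08 and -0.92, 0.179% of all probes). It had -0.27 and -0.81 at 1 and 4 months. Tef had 0.18, -0.33 and -0.23 and Hlf -0.05, -0.22 and -0.26. The 17 genes of this list had medians of -0.07, -0.05 and -0.03. For the partners of P450 enzymes the medians were 0.04, -0.0033 and 0.07 over 18 genes. At 1 month 1 of the 18, Alas1, the rate-limiting enzyme of heme synthesis, was raised 2-fold (1.03, 0.142% of all probes). Alas1 had 0.64 and 0.36 later, with arrays of -0.13 and 0.86 at 4 months. Por had 0.28, 0.05 and 0.37. Ugt1a1, which conjugates bilirubin, had 0.48, 0.25 and 0.90.

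Genes known for a sex difference in liver were listed because Cyp2a4 has one. The 11 tested genes of the female-predominant list had medians of 0.39, 0.05 and 0.75, and 2, 4 and 5 of them were raised 2-fold at 1, 2 and 4 months, as were 0.142%, 0.237% and 0.432% of all probes. Over the months 4 had a raised and 2 a lowered effect with an unadjusted limma p under 0.05, beside 3.54% and 4.44% of all probes. Those raised 2-fold at 4 months were Cyp2b9, Cyp2b13, Cyp3a41a (2.08), Cyp3a44 (2.28) and Sult3a1 (2.14), while Cux2, a female-predominant repressor well above background in 8 of 12 readings, had -0.13, 0.31 and 0.75. The 10 tested male-predominant genes had medians of -1.10, -0.60 and -1.15, with 5, 2 and 6 lowered 2-fold (0.0949%, 0.179% and 0.324% of all probes) and 8 lowered at an unadjusted limma p under 0.05, which 4.44% of all probes met. Hsd3b5, a male-predominant steroid reductase, had -2.93, -2.04 and -4.83 and Cyp7b1 -1.55, -1.42 and -1.64. Cyp2b9 and Cyp2b13 are counted both here and in the cluster.

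Lists for position in the lobule were included because P450 genes are zoned. Pericentral genes, the zone where Cyp2a5 is known to be strongest, had medians of 0.07, 0.06 and -0.05, with Glul at 0.11, 0.37 and 0.17, and 1 of 14 was raised 2-fold, Axin2 at 2 months (1.15, beside 0.237% of all probes), whose probe was well above background in only 2 of 12 readings. Periportal genes had 0.02, -0.12 and 0.15. The 9 genes of ethanol and acetaldehyde oxidation had 0.07, -0.22 and -0.02. Their ethanol-oxidizing P450, Cyp2e1, had 0.07, 0.08 and 0.19, with arrays of 1.00 and -0.62 at 4 months. Of the 9 genes 1, Adh4, was lowered 2-fold at 4 months (-1.24, 0.324% of all probes).

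Markers of other cells differed in some of the same pools. At 4 months 6 of 10 pancreas acinar genes were raised at least 1.5-fold (2.03% of all probes) and 3 at 2-fold (0.432%), namely Cela2a (3.75), Cpb1 (2.17) and Reg1 (1.90). Their summed level was 4.67 in the alcohol and 4.29 in the control pool at 4 months, against 3.78 and 3.82 at 1 month and 4.26 and 4.24 at 2 months, while Cela2a was well above background in 5 of 12 readings. At 1 month 1 of 4 red blood cell genes, Hba-a1 (1.51), and 1 of 6 Kupffer cell genes, Adgre1 (1.23), were raised 2-fold (0.142% of all probes). At 4 months 1 of the 4 red blood cell genes, Alas2, was lowered 2-fold (arrays of -2.28 and -1.73, 0.324% of all probes). The red blood cell list had medians of 0.16, -0.0071 and 0.27 at 1, 2 and 4 months, and the Kupffer cell list 0.16, -0.03 and 0.13. The medians of the sinusoidal endothelial, stellate, cholangiocyte and lymphocyte lists were at most 0.311 in size in every month. The part of these cells in the Cyp2a ratios was not tested.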

How the data were processed

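Per the file headers, the authors processed each array with Feature Extraction 9.1.1.1, which corrected background and normalized the dyes. They deposited, per spot, both channels' signal intensity and a log10 ratio (Cy5 over Cy3), and a table of the same log10 ratios, used as an alternative. Ratios were turned to alcohol over control, put on the log2 scale, averaged over spots and then over the dye-swap pair of a month. Quality flags deposited by the authors gave the calls above background. Genome build was not given in the sources used here. Symbols and sequences came from RefSeq tables of GRCm38.p6; 22951 of 25510 probes with a RefSeq accession were matched.

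Within a month there is no test; a call needed a mean of at least 1.5- or 2-fold and both arrays on that side of 1. Across months, limma 3.58.1 (R 4.3.3) tested the 3 monthly ratios over the 37940 probes that rose well above background in any channel, with Benjamini-Hochberg adjustment at 0.05. The fit was also run on simulated data with known changes and independent noise for each probe. That setting lacks the shared pools, slides and dyes of these arrays, so it cannot show how the test behaves here. p-values measure the spread between pools of different months. Lists used the brightest probe of a gene. Promoter windows were aligned with biopython 1.88; other steps used Python 3.11.15. The number of arrays limits the precision.

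The members and all 19 lists were chosen with earlier results of these data known, and 1 gene of the female-predominant list is not reported here. The genes named were the Cyp2a probes, fixed defining members of the lists, list genes called at 2-fold in a month and the 5 genes most like a Cyp2a probe. Alternatives were another background correction and normalization, single arrays, centring, weights, filters, an unmoderated fit, the slope on the month itself, other scalings of the levels and leaving out a month.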

Additional observations from a re-analysis of the deposited data

How the results depend on the processing

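No Cyp2a probe passed the adjusted limma test for the effect or the slope under any alternative, and the smallest adjusted p was 0.111 for the effect (both Cyp2a4 probes, normexp and loess) and 0.0837 for the slope (Cyp2a5 probe 1). For Cyp2a4 and Cyp2a5 the effect stayed positive in every alternative, between 0.71 and 1.67. Over all probes, limma called 9 effects and 50 slopes with normexp and loess, and 6 effects with the filter on both channels, against 0 of both in the main setting. With the arrays that had alcohol in Cy5 alone, Cyp2a12 reversed in its effect (-0.021), its slope (-0.032) and its 2-month ratio (-0.32), as did the 2-month ratio of LOC233005 (-0.16). With loess and Aquantile scaling, the change of the Cyp2a5 probe 2 control level from 2 to 4 months reversed to 0.22. For the other probes this change of the control level kept its sign. Read within Cy5, 1 Cyp2a probe in place of 4 was at least 2-fold higher at 4 months (1.35% of all probes were), and the excess of Cyp2a4 and Cyp2a5 over Cyp2a12 was 0.36 within Cy5 and 1.06 within Cy3. Leaving out each month in turn gave an excess from 0.62 to 0.85. The causes were not tested. Every ratio fitted already pairs the alcohol and control pool of one month on one array. With 1 pool per arm and month, a difference between months cannot be separated from a difference between pools of mice, and 3 monthly ratios leave little power after adjustment over all probes.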
